A study of Homo sapiens with 9 samples.

Results

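The comparison described here is that of A375 cells given 40 mM metformin with A375 cells given 20 mM, that is, the second of 2 equal dose steps. It rests on 6 of the 9 libraries measured, 3 at each dose, chosen by their labelled dose. A375 is an established human melanoma line with an activating BRAF mutation. All groups were labelled wild type and differed in the labels by dose alone: 0, 20 or 40 mM metformin. RNA was polyadenylated RNA from 1 cell line, and the labels give no treatment time. The labels do not say whether the 3 libraries of a dose are separate cultures. The p-values below therefore weigh a difference only against how these libraries vary, and that variation may be technical. Genes with a mean of at least 1 FPKM (fragments scaled by gene length and library size) over the 9 libraries were tested, 12394 of 37118. At that limit, AC009090 with a mean of 1.00022 FPKM was inside and AL645608 with 0.999805 FPKM was outside.

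Metformin is a biguanide, a drug class that slows complex I of the mitochondrial respiratory chain and so the making of ATP. Cells with a mitochondrial fault or a shortage of amino acids raise the transcription factor ATF4 through the integrated stress response. ATF4 switches on genes for amino acid synthesis, amino acid import and the loading of transfer RNAs, together with stress factors such as DDIT3. AP-1 and the other immediate early genes are a separate class, transcribed within minutes of growth factor or stress signals without new protein synthesis.

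Library totals of the 9 libraries ran from 65738242 to 75629413 counts. Replicate 3 of 40 mM stood apart from its group. It had the lowest total, and on the second principal component of the 6 libraries it lay at -29.87, against 11.67 and 13.44 for the other 40 mM libraries. Its share of counts from mitochondrial genes was 4.36%, against 3.01% and 3.27% in the others of its dose and 3.63% to 3.77% at 20 mM. Its share from cytosolic ribosomal protein genes was 5.02%, below the 5.47% and 5.74% of the others and the 5.89% to 6.22% at 20 mM. Of the melanoma markers, SOX10 (70.7 to 114 FPKM over the 9 libraries), VIM (254 to 479.7) and S100B (5.27 to 12.3) were present, and MITF was low (2.43 to 3.40). PMEL and MLANA, which mark pigmented cells, reached at most 0.258 and 0.322 FPKM in any library, and TYR at most 0.0171. Results that change by over 1.5-fold, or lose their call, when 1 library is left out are given with that library.

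Of the 12394 genes, 3637 (29.3%) differed between 40 and 20 mM at an adjusted p under 0.05. Counts of all 9 libraries entered 1 quasi-likelihood fit in edgeR, with Benjamini-Hochberg adjustment, and the words rose, fell, higher and lower below refer to it unless values alone are given. At 40 mM 1770 genes (14.3%) were higher and 1867 (15.1%) lower, with a median log2 change of 0.28 and -0.30. On log2(FPKM + 1) with limma, 59.9% of the called genes were higher, against 48.7% here. Most changes were small: 39 genes (0.315%) were higher by at least 2-fold and 19 (0.153%) lower. Without replicate 2 of 20 mM the count was 2408 (1142 higher), and 1154 were higher without replicate 3 of 20 mM. With each of the 9 libraries left out in turn, 2037 genes were called every time.

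**Figure D1:**
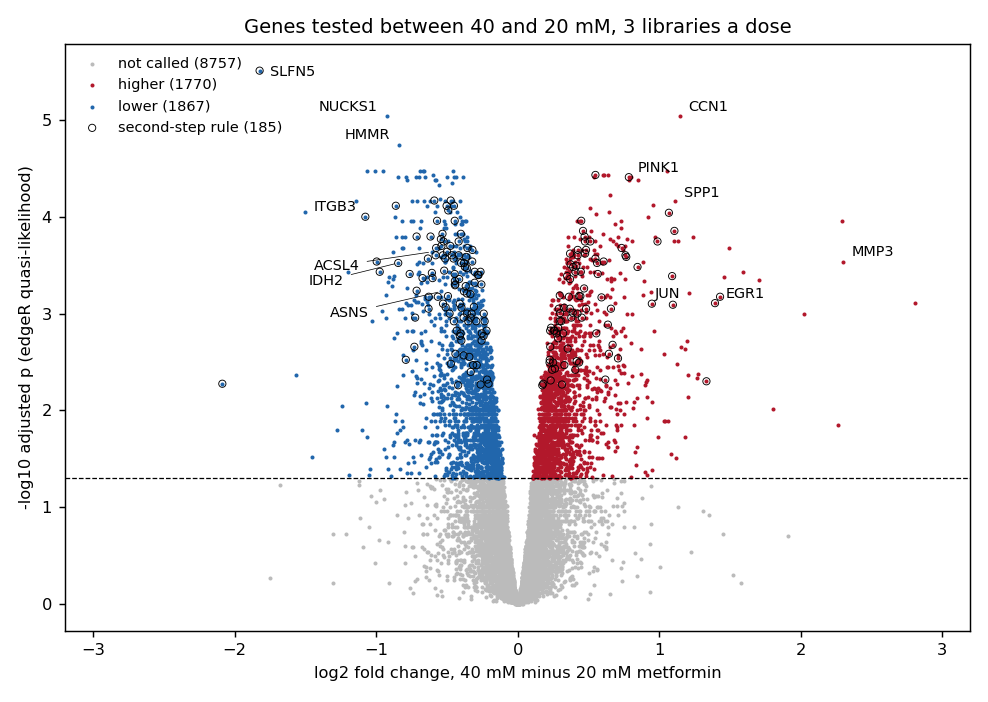
Log2 fold change of 40 against 20 mM metformin (x axis) and -log10 adjusted p of edgeR's quasi-likelihood test (y axis) for the tested genes, with the dashed line at an adjusted p of 0.05. Red points (1770) were higher at 40 mM, blue points (1867) lower, and ringed points are the 185 genes that met the second-step rule; 4 genes that were not called lie beyond the x axis limit of 3.2.

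Genes of secreted, matrix-associated and stress proteins were among the largest rises. CCN1, a matrix protein and YAP target (chromosome 1, 85580761 to 85583950 in the deposited table), had 18.7, 17.6 and 17.6 FPKM in the 3 libraries of 20 mM and 44.1, 38.7 and 39 at 40 mM, a log2 change of 1.14 ± 0.06 (SE; adjusted p = 9.2e-06). SPP1, the secreted phosphoprotein osteopontin, had 3.79, 3.39 and 3.69 FPKM and then 8.51, 7.61 and 7.87 (1.11 ± 0.10; adjusted p = 6.8e-05). MMP3, a protease that cuts matrix proteins, had 0.733, 0.614 and 0.569 FPKM at 20 mM and 4.69, 2.98 and 2.02 at 40 mM (2.30 ± 0.28; adjusted p = 0.00029). The 40 mM libraries lay above all 20 mM libraries in each of these genes, as 25.9% of all tested genes did. For CCN1 and SPP1 this separation was a condition for naming them and so is not a separate result. The MMP3 libraries of 40 mM spread over more than 2-fold. TCN1, a vitamin B12 binding protein, rose by 1.13 ± 0.12 and CEBPD, a stress-induced C/EBP transcription factor, by 1.13 ± 0.21 on the log2 scale. Over the first step CCN1 (0.59), SPP1 (0.34) and TCN1 (0.82) had already been higher. CEBPD was not called there (0.53 ± 0.22, adjusted p = 0.083), nor was its difference between the steps (adjusted p = 0.38).

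Among the largest falls of genes with at least 5 FPKM were regulators of growth, adhesion and mitosis. ITGB3, the beta-3 integrin subunit (chromosome 17, 47253827 to 47313743), had 18.3, 20.9 and 22.4 FPKM at 20 mM and 8.87, 10.2 and 10.7 at 40 mM (-1.08 ± 0.10; adjusted p = 0.0001). NUCKS1, a chromatin-associated nuclear phosphoprotein, went from 56.2, 58.5 and 57.2 FPKM to 28.7, 32.2 and 31.8 (-0.92 ± 0.05; adjusted p = 9.2e-06). HMMR, a spindle-associated hyaluronan receptor, had 12.6, 12.8 and 12.5 FPKM and then 6.78, 7.33 and 7.57 (-0.84 ± 0.05; adjusted p = 1.8e-05). In these genes every 40 mM library lay below every 20 mM library, a condition for naming them that 18% of all tested genes met. DAP, the death-associated protein, changed by -0.95 ± 0.07, SOX5, a SOX-family transcription factor, by -0.91 ± 0.12 and MEOX2, a homeobox factor, by -0.89 ± 0.12 on the log2 scale. Over the first step NUCKS1 (-0.53), HMMR (-0.53), DAP (-0.51), SOX5 (-0.75) and MEOX2 (-0.60) had already been lower, while ITGB3 was not called.

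Some of the largest changes fell on short or overlapping genes whose reads may not be their own. RN7SK, a small nuclear RNA without a poly(A) tail, had 1.30, 1.99 and 0.638 FPKM at 20 mM and 13.6, 8.30 and 6.61 at 40 mM. AC138811, which overlaps RPS15A and ARL6IP1 in the deposited table, had 47.2, 45.4 and 52.7 FPKM at 20 mM and 13.7, 14 and 7.21 at 40 mM. Its untreated libraries were at 10.7, 49.6 and 38.2 FPKM, so the first of these lay with the 40 mM libraries. The mitochondrial transfer RNA gene MT-TL1 had 147, 146 and 161 FPKM untreated, 75.3, 64.7 and 61.4 at 20 mM and 147, 131 and 165 at 40 mM. NDUFC2-KCTD14 is a read-through that overlaps NDUFC2. AL137800, listed by clone name only, is neither short nor overlapped by another expressed gene in the deposited table. It had 2.54, 1.99 and 2.76 FPKM and then 13.8, 10.3 and 12.6, a log2 change of 2.29 ± 0.23 (adjusted p = 0.00011). That call held with each library left out, and AL137800 had already been higher over the first step (2.14). CHMP4A, SNORD38A, AC068580, AC009065 and AC093484 met the naming rule by size, but each lost its call in 2 to 5 of the 9 fits without 1 library and is given no value.

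Of the genes downstream of ATF4, nearly all rose over the first step, while over the second some fell, fewer rose and the others were not called. From 0 to 20 mM 38 of the 39 tested ATF4 targets were higher, against 16.3% of all tested genes. From 20 to 40 mM 14 were lower (35.9%, against 15.1% of all tested genes), 6 were higher (15.4%, against 14.3%) and 19 were not called. Their median log2 change was 1.33 over the first step and -0.03 over the second, against -0.0004 for all tested genes over the second. The test of the difference between the steps found the second step more negative than the first in 33 of the 39 and more positive in 0, where 4.11% and 2.73% of all tested genes were called. That count ran from 31 to 34 with 1 library left out. Because the 20 mM libraries enter both steps with opposite signs, an error in them moves this difference. Among 14 lower and 6 higher members, the counts were 9 lower without replicate 3 of 20 mM and 10 higher without replicate 3 of 40 mM.

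The members that fell were mostly enzymes. ASNS, which makes asparagine, had 14.6, 15.9 and 16 FPKM untreated, 54.4, 63.7 and 68.3 at 20 mM and 44, 45.7 and 41.5 at 40 mM (-0.54 ± 0.07 for the second step; adjusted p = 0.00059). PCK2, the mitochondrial phosphoenolpyruvate carboxykinase, had 3.33, 3.47 and 3.55, then 10.1, 11.8 and 13.1 and then 6.52, 6.58 and 7.19 FPKM (-0.81 ± 0.09; adjusted p = 0.00016). Both genes rose and then gave back part of the rise, so their 40 mM libraries lay between the other doses. PSAT1 and SHMT2 of serine and glycine synthesis changed by -0.45 and -0.28, PYCR1 of proline synthesis by -0.47, and the folate enzymes ALDH1L2 and MTHFD2 by -0.45 and -0.26. SESN2, a brake on mTORC1, changed by -0.36 ± 0.07. ATF4 itself had 179, 182 and 183 FPKM at 20 mM and 157, 159 and 169.7 at 40 mM (-0.20 ± 0.04; adjusted p = 0.0074), with no overlap of the libraries. CHAC1, which degrades glutathione, and SLC7A11, the cystine transporter, changed by -0.28 ± 0.07 and -0.17 ± 0.05. Both calls were lost when any of 3 libraries was left out: replicate 2 of 20 mM (adjusted p = 0.061 and 0.12), replicate 3 of 20 mM (0.075 and 0.081) and replicate 2 of 40 mM (0.056 and 0.061).

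Members that rose further were mostly transcription factors and regulators. ATF3, a stress-induced ATF/CREB factor, had 1.52, 1.65 and 1.05 FPKM untreated, 3.52, 3.30 and 3.82 at 20 mM and 7.98, 6.83 and 4.72 at 40 mM (0.84 ± 0.19; adjusted p = 0.0075). NUPR1, a small stress-induced chromatin protein, had 3.28, 3.53 and 3.56 FPKM at 20 mM and 5.17, 5.02 and 5.41 at 40 mM (0.56 ± 0.12; adjusted p = 0.006), after 0.210, 0.226 and 0.337 at 0 mM. Each 40 mM library of these genes lay above each 20 mM library. ATF5 rose by 0.54 ± 0.07, and the amino acid transporters SLC38A2 and SLC6A9 by 0.25 ± 0.04 and 0.23 ± 0.06; SLC6A9 lost its call without replicate 1 of 20 mM (adjusted p = 0.062). DDIT3, the pro-death C/EBP factor CHOP, had 39, 42.8 and 51.6 FPKM and then 58.2, 70.0 and 55 (0.43 ± 0.11; adjusted p = 0.015). The call did not hold when replicate 1 (adjusted p = 0.056) or 2 (0.058) of 20 mM or replicate 2 of 40 mM (0.053) was left out, and its locus overlaps MARS1 in the deposited table. GDF15, a secreted stress hormone, had 13.7, 11.6 and 12.9 FPKM and then 17.7, 14.8 and 19.8 (0.42 ± 0.18; adjusted p = 0.1), which did not pass, but did without replicate 1 of 0 mM (0.021).

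Cytosolic aminoacyl-tRNA synthetases, which load transfer RNAs with amino acids, were mostly lower at 40 mM. At 40 against 20 mM 14 of 20 were lower (70%) and 0 higher, with a median log2 change of -0.19, after 12 of the 20 higher and 5 lower over the first step, against 16.3% and 15.2% of all tested genes. The second step was more negative than the first in 12 of 20, and in 11 to 13 with 1 library left out. IARS1, for isoleucine, had 42.1, 43 and 43.2 FPKM untreated, 51.3, 54.6 and 55.4 at 20 mM and 38.1, 39.8 and 38.9 at 40 mM (-0.50 ± 0.04; adjusted p = 3.9e-05), so that the 40 mM libraries lay below the untreated ones. SARS1, for serine, had 32.8, 34.7 and 32.7, then 55.3, 59.6 and 63.2 and then 49.9, 49.9 and 47.2 FPKM (-0.31 ± 0.05; adjusted p = 0.0017), and stayed above the untreated level. FARSB, a subunit for phenylalanine, was at 9.26, 9.15 and 9.21 FPKM at 0 mM and 9.19, 9.39 and 9.41 at 20 mM before it fell to 7.21, 7.54 and 7.62 (-0.35 ± 0.04; adjusted p = 0.00021).

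**Figure D2:**
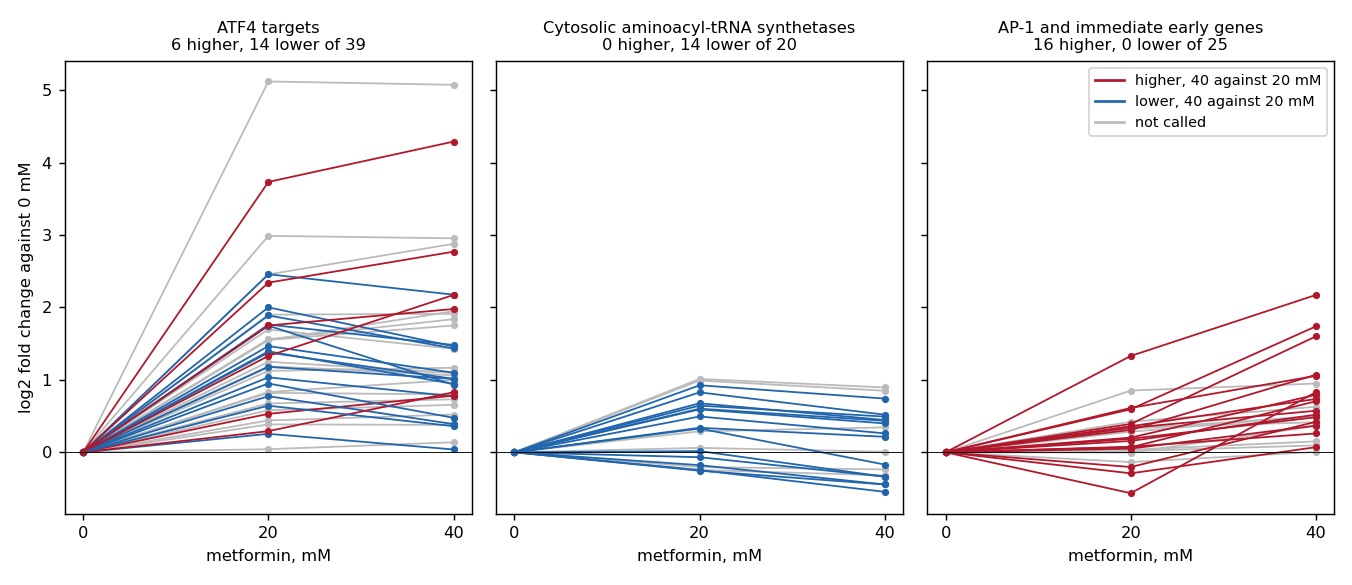
Log2 fold change against 0 mM (y axis) at 0, 20 and 40 mM metformin (x axis) for each tested member of 3 gene lists, 1 line a gene. Colour gives the call between 40 and 20 mM: of the ATF4 targets 6 were higher and 14 lower, of the synthetases 0 and 14, and of the AP-1 and immediate early genes 16 and 0.

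To find what the second step alone was called for, a second-step gene was defined by 4 conditions: called at 40 against 20 mM, called in the same direction at 40 against 0 mM, called for the difference between the steps, and not called at 20 against 0 mM. The rule was met by 185 genes (1.49%), 83 higher (0.67%) and 102 lower (0.823%), with a median log2 change of 0.42 and -0.44. Not being called at 20 mM does not show that a gene was unchanged there. For 134 of the 185 (56 higher, 0.452% of tested genes; 78 lower, 0.629%) the 95% interval of the first step lay within 1.2-fold either way. All 185 remained called at 40 against 20 mM with each library left out, but the full rule depended on single libraries. It was met by 97, 79 and 121 genes without replicates 1, 2 and 3 of 0 mM, by 97, 17 and 26 without those of 20 mM, and by 113 and 148 without replicates 1 and 2 of 40 mM. Without replicate 3 of 40 mM it was met by 159 higher and 216 lower genes. Of the 185, 170 still met it without replicate 3 of 40 mM, 50 did in at least 7 of the 9 fits and 7 in all 9. These 7, listed after their values were seen, were NDRG2 (1.07) and SYNPO (0.73), which were higher, and PYGB (-0.47), SLFN5 (-1.82), KNTC1 (-0.50), PRIM1 (-0.59) and TWF2 (-0.44), which were lower.

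SLFN5, a member of the Schlafen family, had the smallest p of all tested genes and is described for that reason, chosen after its values were seen. It had 2.56, 2.81 and 3.16 FPKM untreated, 2.53, 2.63 and 2.60 at 20 mM and 0.721, 0.717 and 0.799 at 40 mM (chromosome 17, 35243071 to 35273655 in the deposited table). Its first step of -0.14 ± 0.08 was not called (adjusted p = 0.21) and its second was -1.82 ± 0.08 (adjusted p = 3.1e-06). The 40 mM libraries lay far below the 6 others.

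**Figure D3:**
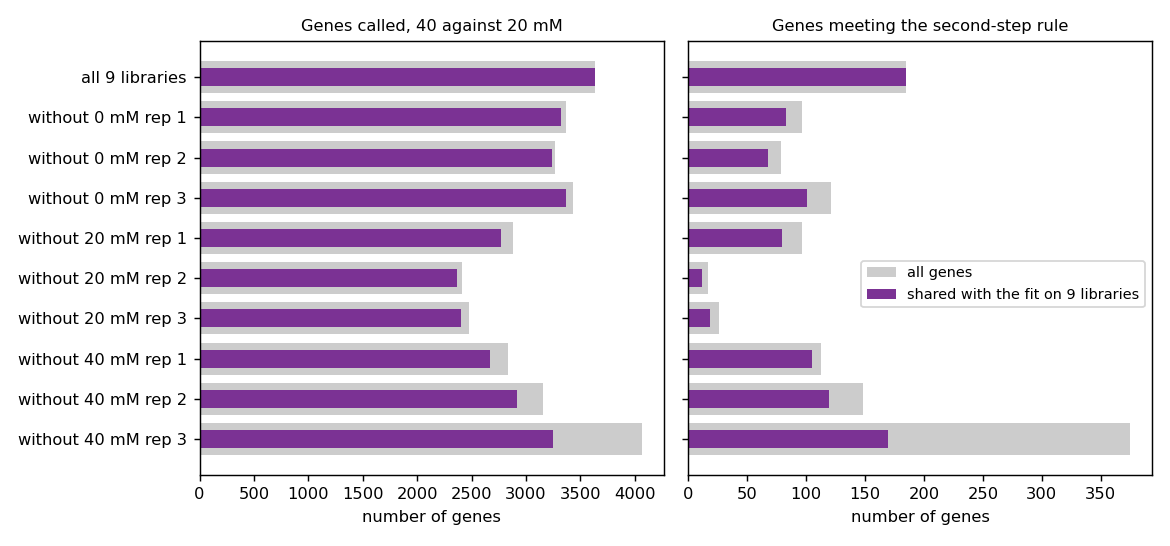
Number of genes (x axis) called at 40 against 20 mM (left) and meeting the second-step rule (right) with all 9 libraries and with each library left out. Grey bars count all such genes and purple bars those also found with 9 libraries; the right panel falls to 17 without replicate 2 of 20 mM and is longest without replicate 3 of 40 mM, at 159 higher and 216 lower genes.

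The largest second-step rises included a vessel growth factor, a chaperone and a kinase of mitochondrial quality control. VEGFC, a growth factor for lymphatic vessels, had 3.28, 3.09 and 2.74 FPKM untreated, 3.80, 3.33 and 3.05 at 20 mM and 7.33, 6.90 and 6.44 at 40 mM (0.99 ± 0.11; adjusted p = 0.00018). PINK1, the kinase that marks damaged mitochondria for removal (chromosome 1, 20633458 to 20651511), had 4.58, 4.76 and 5.26, then 5.78, 5.38 and 5.24 and then 9.60, 9.90 and 9.42 FPKM (0.79 ± 0.06; adjusted p = 3.9e-05). HSPB8, a small heat shock protein of selective autophagy, had 2.34, 2.34 and 2.45, then 3.19, 2.40 and 3.06 and then 6.95, 5.69 and 6.43 FPKM (1.11 ± 0.11; adjusted p = 0.00014). In all 3 the 40 mM libraries lay above the 6 others, where separation from 20 mM was a condition for naming them. The first step was not called in these genes, but its log2 differences were 0.16 ± 0.11, 0.17 ± 0.06 and 0.28 ± 0.11. None of the 10 largest second-step rises named here had a first step whose 95% interval lay within 1.2-fold either way. PINK1 met the rule in 5 of the 9 fits without 1 library, and VEGFC and HSPB8 in 3 each. PINK1 overlaps an antisense gene, PINK1-AS, and the sources do not say whether counting used the strand.

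LYPD3, a surface protein of epithelial cells, had 2.74, 2.45 and 2.30 FPKM untreated, 2.98, 2.02 and 2.48 at 20 mM and 6.36, 4.67 and 5.37 at 40 mM (1.10 ± 0.16). LAMB3, a laminin chain of basement membranes, went from 4.55, 3.97 and 3.73 to 8.52, 7.52 and 6.51 FPKM (0.85 ± 0.10). Each met the rule in 3 of the 9 fits. CYP1A1, the aryl hydrocarbon receptor target that oxidises xenobiotics, rose by 0.77 ± 0.09, ELL2, a transcription elongation factor, by 0.66 ± 0.10, IL7R, the interleukin-7 receptor chain, by 0.65 ± 0.12, and NR1D1, the circadian repressor REV-ERB alpha, by 0.64 ± 0.10. These held the rule in 2, 6, 3 and 4 of the 9 fits.

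The second-step falls held genes of DNA synthesis, chromosome segregation and mitochondrial upkeep. PRIM1, the primase subunit that starts each new DNA strand (chromosome 12, 56731296 to 56752374), had 12.4, 12.7 and 12.7 FPKM untreated, 13, 12.4 and 13 at 20 mM and 8.17, 8.91 and 8.97 at 40 mM (-0.59 ± 0.05; adjusted p = 6.8e-05). CENPH, a kinetochore protein, had 18.3, 18.2 and 18.4, then 17.4, 18.3 and 18 and then 11.4, 12.9 and 9.09 FPKM (-0.71 ± 0.10; adjusted p = 0.00058). IDH2, the mitochondrial isocitrate dehydrogenase, had 4.38, 4.62 and 4.36, then 4.11, 4.55 and 4.19 and then 2.27, 2.27 and 2.78 FPKM (-0.84 ± 0.10; adjusted p = 0.0003). The 40 mM libraries of each lay below the 6 others, whose ranges overlapped. For PRIM1 and CENPH separation from 20 mM was a condition for naming them. PRIM1 held the rule in 9 of the 9 fits, CENPH in 2 and IDH2 in 3.

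TFB1M, which methylates the mitochondrial ribosomal RNA, had 6.33, 7.33 and 6.76 FPKM at 20 mM and 4.6, 4.77 and 4.07 at 40 mM (-0.63 ± 0.07). TSG101, part of the ESCRT sorting machinery, had 13.1, 14.4 and 13.7 and then 8.65, 9.61 and 9.96 FPKM (-0.58 ± 0.06). GTF2H3, a subunit of the transcription and repair factor TFIIH, changed by -0.58 ± 0.07 and SCOC, a coiled-coil protein, by -0.62 ± 0.07. ITGB3, described above, also met the rule, as did CDKN2AIPNL (-0.60 ± 0.08) and the ubiquitin pseudogene UBBP4 (-0.76 ± 0.10), whose reads may belong to other ubiquitin genes. TFB1M held the rule in 4 fits, TSG101 in 5, GTF2H3 and SCOC in 8, ITGB3 and UBBP4 in 7, CDKN2AIPNL in 2 and AC138811 in 2.

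**Figure D4:**
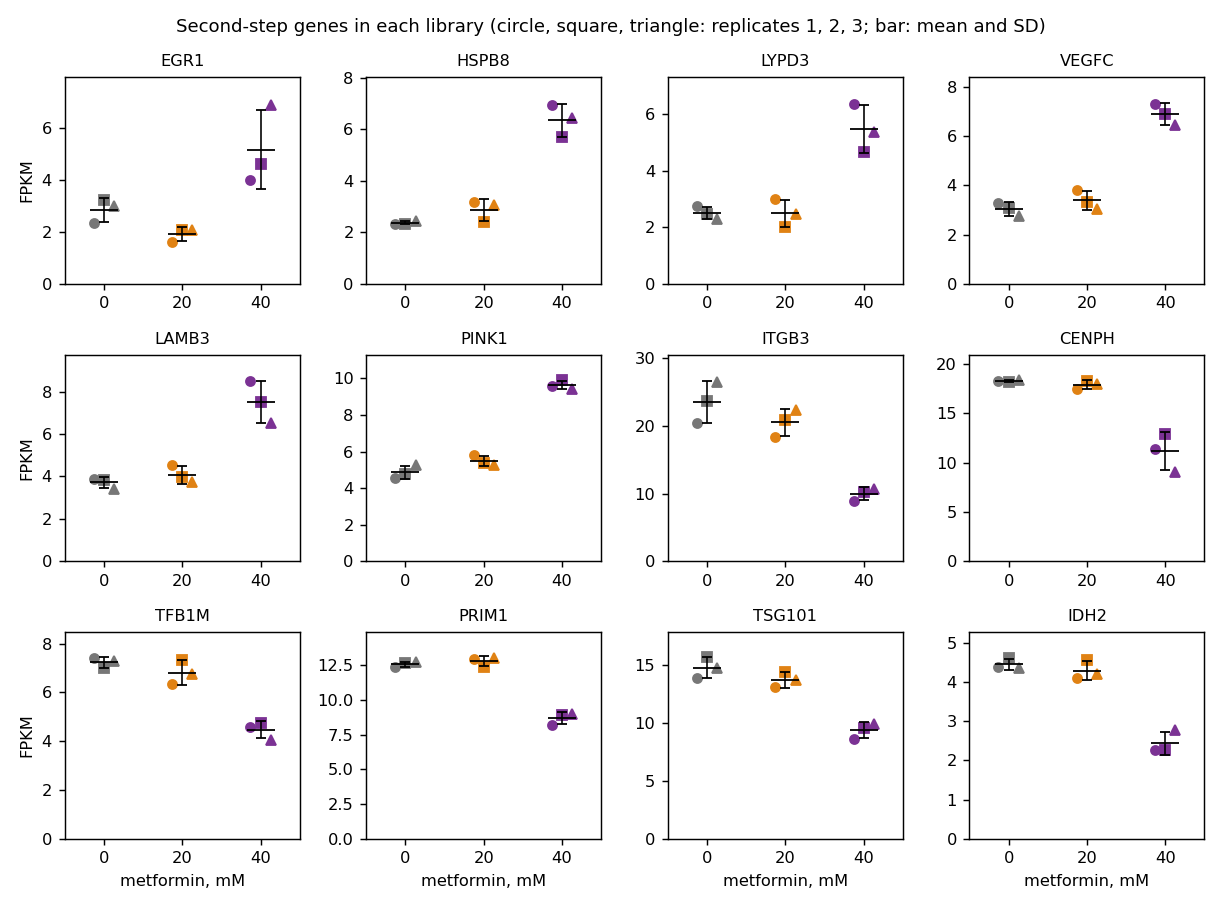
FPKM (y axis) of 12 second-step genes in each library at 0, 20 and 40 mM metformin (x axis); circles, squares and triangles are replicates 1, 2 and 3, and bars give the mean and SD of 3 libraries. The 40 mM libraries lie above all others in EGR1, HSPB8, LYPD3, VEGFC, LAMB3 and PINK1, and below all others in ITGB3, CENPH, TFB1M, PRIM1, TSG101 and IDH2. Separation of 40 from 20 mM was a condition for naming these genes, except IDH2.

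Most AP-1 and immediate early genes rose over the second step. Of 25 tested, 16 were higher (64%, against 14.3% of all tested genes) and 0 lower, 9 were not called, and the median log2 change was 0.36. Without replicate 2 or without replicate 3 of 20 mM the count was 10. Over the first step 10 of the 25 were already higher and 1 lower, against 16.3% and 15.2% of all tested genes. The difference between the steps was called as more positive in 3 and as more negative in 1, against 2.73% and 4.11%. The promoters of 3 factors of this list are shown because the genes rose most among its transcription factors, from 250 bases before to 50 after the start in RefSeq (GRCh38.p14), 5′ to 3′ on the gene's strand. Capitals mark in EGR1 (chr5:138465229-138465528, plus strand) the CArG boxes that serum response factor binds, and in JUN (chr1:58783998-58784297, minus strand) the AP-1 variant TGACNTCA. In ATF3 (chr1:212565157-212565456, plus strand) they mark first the ATF4 element TGATGNAA and then TGACNTCA. This window lies at the upstream end of ATF3, which runs from 212565334 to 212620772 in the deposited table. A single start was taken for each gene, and counts per gene do not show which start was used.
EGR1: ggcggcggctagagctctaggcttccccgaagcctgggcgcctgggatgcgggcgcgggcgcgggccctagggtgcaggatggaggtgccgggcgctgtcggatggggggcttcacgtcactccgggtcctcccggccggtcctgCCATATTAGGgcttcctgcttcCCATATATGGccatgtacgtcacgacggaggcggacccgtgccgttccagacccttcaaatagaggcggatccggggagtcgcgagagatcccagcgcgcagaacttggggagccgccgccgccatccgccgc
JUN: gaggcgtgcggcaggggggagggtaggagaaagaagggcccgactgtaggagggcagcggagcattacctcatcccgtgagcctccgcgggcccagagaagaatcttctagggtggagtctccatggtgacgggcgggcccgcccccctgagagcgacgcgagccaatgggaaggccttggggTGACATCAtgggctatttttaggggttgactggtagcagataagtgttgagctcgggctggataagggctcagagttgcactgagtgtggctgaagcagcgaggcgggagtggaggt
ATF3: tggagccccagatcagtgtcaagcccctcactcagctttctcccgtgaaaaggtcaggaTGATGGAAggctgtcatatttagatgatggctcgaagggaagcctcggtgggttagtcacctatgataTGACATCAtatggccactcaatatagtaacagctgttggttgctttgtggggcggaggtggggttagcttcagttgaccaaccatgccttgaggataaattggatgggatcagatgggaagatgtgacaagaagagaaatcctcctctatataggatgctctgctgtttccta
The EGR1 matches start 105 and 83 bases before the start, that of JUN 67 bases before it, and those of ATF3 191 and 123 bases before it. Both strands were searched; TGACNTCA includes the cyclic AMP element TGACGTCA, and it and the CArG box were added after the sequences had been read. TGACNTCA occurred in 6.25% of the 8887 tested promoters and in 6.96% of those of genes higher at 40 mM; its share in this list is not given, since the letters were taken from members of it. The ATF4 element occurred in 5 of 31 promoters of ATF4 targets (16.1%) against 1.61%. A CArG box occurred in 1.09% of tested promoters, and the shorter AP-1 element TGANTCA in 1 of the 18 promoters of this list found in RefSeq (5.56%) against 4.31%. A match of letters is a description and not a binding site.

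EGR1, a zinc finger factor and textbook readout of ERK signalling (chromosome 5, 138465479 to 138469303 in the deposited table), had 2.34, 3.23 and 2.99 FPKM untreated, 1.63, 2.08 and 2.08 at 20 mM and 4.0, 4.64 and 6.92 at 40 mM. Its first step, -0.56 ± 0.20, was not called (adjusted p = 0.052) and its second was 1.39 ± 0.20 (adjusted p = 0.00078). EGR1 met the second-step rule in 4 of the 9 fits without 1 library. JUN, an AP-1 subunit, had 3.51, 2.90 and 2.79, then 4.68, 4.37 and 3.04 and then 11.2, 9.33 and 8.05 FPKM (1.21 ± 0.17; adjusted p = 0.00061). The lowest 40 mM library lay above the highest library of either other dose in both genes, where separation from 20 mM was a condition for naming them. In JUN the difference between the steps was not called (adjusted p = 0.12). Other AP-1 subunits rose less: FOSL2 by 0.76 ± 0.10, FOSB by 0.64 ± 0.12, FOS by 0.62 ± 0.18, JUND by 0.36 ± 0.07 and JUNB by 0.32 ± 0.08. ZFP36, which destabilises messenger RNAs, rose by 0.59 ± 0.16. FOS lost its call in 3 fits, those lacking replicate 2 of 20 mM (adjusted p = 0.079), replicate 1 of 40 mM (0.053) and replicate 3 of 40 mM (0.051), JUNB without replicate 3 of 20 mM (0.074), and ZFP36 without replicate 2 (0.06) or 3 (0.071) of 20 mM.

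Among related signalling lists, that of MAPK output shares EGR1, IER3 and FOSL1 with the AP-1 list and that of YAP shares CCN1, so their counts are not independent. Of 24 genes of MAPK pathway output, 5 were higher (20.8%; 3 without replicate 2 or 3 of 20 mM) and 2 lower, the latter both lost when any library of 20 mM or replicate 1 of 40 mM was left out, and 1 of them for replicate 1 or 2 of 0 mM or replicate 2 of 40 mM. DUSP5, a nuclear ERK phosphatase, had 15.3, 12.2 and 12.5 FPKM at 20 mM and 26.1, 21.5 and 18.3 at 40 mM (0.69 ± 0.14). Of 21 YAP and TEAD targets, 9 were higher (42.9%) and 1, NT5E, lower (-0.35 ± 0.05), with a median of 0.21. CCN2, a matrix protein like CCN1, had 11.9, 10.8 and 10.6 and then 23.1, 18.7 and 16.4 FPKM (0.78 ± 0.12; adjusted p = 0.001), and F3, the coagulation tissue factor, rose by 0.73 ± 0.17. The libraries did not overlap in DUSP5, CCN2 or F3.

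Most genes of DNA replication fell. Of 44 genes of S phase and DNA replication, 32 were lower at 40 mM (72.7%, against 15.1% of all tested genes) and 0 higher, with a median log2 change of -0.25. Over the first step 29 of the 44 were already lower and 0 higher, against 15.2% and 16.3% of all tested genes. The median of that step was -0.23. A pair of promoters is shown for this list, that of the helicase subunit MCM6 (chr2:135876394-135876693, minus strand) and that of GINS1 (chr20:25407423-25407722, plus strand), a second-step gene that held the rule in 4 of the 9 fits without 1 library. Capitals mark the E2F element TTTGGCGC on either strand, and in GINS1 also TGANTCA at its first base and, before the E2F match, an NF-kB element.
MCM6: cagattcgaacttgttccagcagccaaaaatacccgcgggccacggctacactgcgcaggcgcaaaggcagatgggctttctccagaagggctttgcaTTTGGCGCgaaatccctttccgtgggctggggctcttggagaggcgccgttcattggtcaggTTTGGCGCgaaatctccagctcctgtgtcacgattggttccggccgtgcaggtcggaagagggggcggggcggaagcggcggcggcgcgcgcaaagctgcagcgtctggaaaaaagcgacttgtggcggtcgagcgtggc
GINS1: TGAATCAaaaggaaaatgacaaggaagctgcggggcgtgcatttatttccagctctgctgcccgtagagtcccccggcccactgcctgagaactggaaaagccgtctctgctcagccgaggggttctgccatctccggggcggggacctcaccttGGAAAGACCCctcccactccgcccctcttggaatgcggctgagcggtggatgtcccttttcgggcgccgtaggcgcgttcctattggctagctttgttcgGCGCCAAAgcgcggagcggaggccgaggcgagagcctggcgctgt
The E2F matches start 152 and 90 bases before the start of MCM6 and at base 5 after that of GINS1. E2F factors are the textbook activators of S phase genes. The element occurred in 9 of 38 promoters of this list (23.7%) against 1.19% of tested promoters. Both promoters shown are among these 9, so their matches are not a separate result. The promoter of PRIM1, the other second-step gene of the list, had no match for it.

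By role, the falls reached origin licensing, the fork and nucleotide supply. MCM6 had 19.5, 19.8 and 17.9 FPKM at 20 mM and 14.7, 15.1 and 13.4 at 40 mM (-0.44 ± 0.05; adjusted p = 0.00028). LIG1, the ligase that joins Okazaki fragments, had 4.43, 4.54 and 4.53 and then 2.84, 2.98 and 3.03 FPKM (-0.64 ± 0.06; adjusted p = 7.7e-05). In both genes the libraries of the doses did not overlap. The activator E2F2 changed by -0.80 ± 0.12, POLE2, a DNA polymerase epsilon subunit, changed by -0.61 ± 0.10 and RRM2, the ribonucleotide reductase subunit, by -0.45 ± 0.04. GINS1 changed by -0.38 ± 0.06 after 0.04 ± 0.06 over the first step. The difference between the steps was called in 4 of the 44 as more negative and in 1 as more positive, where 4.11% and 2.73% of all tested genes were called.

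G2 and mitosis genes also fell, 20 of 34 (58.8%) with 0 higher and a median of -0.16. The count was 12 without replicate 1 and 13 without replicate 2 of 20 mM. Over the first step 12 of the 34 were lower and 5 higher, against 15.2% and 16.3% of all tested genes. PRC1, which bundles spindle microtubules, had 18.8, 19.3 and 21.6 FPKM at 20 mM and 14.5, 16.1 and 13.1 at 40 mM (-0.48 ± 0.07). CDK1, the kinase that starts mitosis, had 31.1, 29.4 and 29.4, then 31.7, 33 and 31.8 and then 25.9, 27.7 and 23.8 FPKM (-0.35 ± 0.05; adjusted p = 0.0012). CDK1 and TOP2A (-0.28 ± 0.04), the topoisomerase of mitotic chromosomes, were second-step genes, CDK1 in 5 of the 9 fits and TOP2A in 4. Of 26 DNA repair genes, 14 were lower (53.8%) and 0 higher, with a median of -0.31. Over the first step 6 of the 26 were lower and 1 higher. FANCI of the Fanconi anaemia pathway had 9.34, 10.1 and 10.5 and then 7.90, 8.18 and 6.19 FPKM (-0.46 ± 0.09), and 3 members met the second-step rule, among them XRCC2 (-0.40 ± 0.07; 4 fits) and the helicase gene BRIP1 (-0.40 ± 0.06; 1 fit). In cultures of cells, fewer cells in a phase of the cycle and less RNA per cell cannot be told apart.

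Genes of the cytosolic ribosome fell by small amounts. Of 81 ribosomal protein genes 43 were lower (53.1%) and 0 higher, with a median log2 change of -0.19. That count was 21 without replicate 2 and 20 without replicate 3 of 20 mM. Replicate 3 of 40 mM had the lowest share of counts from these genes, but leaving it out did not move the count by over 1.5-fold. The median ran from -0.265 to -0.13 with 1 library left out. RPL22L1, a paralog of RPL22, had 29.3, 31.9 and 33.1 FPKM at 20 mM and 21.4, 23.7 and 13.2 at 40 mM (-0.73 ± 0.16; adjusted p = 0.0064). Its lowest library was replicate 3 of 40 mM. RPL10 had 166, 173 and 178 and then 142, 150.1 and 114 FPKM (-0.38 ± 0.08), and RPL3, the 1 second-step gene of the list (in 6 of the 9 fits), changed by -0.32 ± 0.04 and held the rule in 6 of the 9 fits. RPL39L (-0.55 ± 0.17) lost its call without replicate 2 (adjusted p = 0.099) or 3 (0.1) of 20 mM, or replicate 1 (0.068) or 3 (0.072) of 40 mM. Ribosomal protein genes have many processed pseudogenes, so their reads may be shared.

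Ribosome assembly genes gave 10 lower of 32 (31.2%) and 2 higher (0 without replicate 2 of 0 mM, replicate 1 or 3 of 20 mM or replicate 1 of 40 mM, and 1 in the fits lacking replicate 1 of 0 mM, its replicate 3, or replicate 2 of 20 mM), with a median of -0.03. NPM1, the abundant nucleolar chaperone, had 579, 579.8 and 567 FPKM at 20 mM and 449, 463 and 441 at 40 mM (-0.38 ± 0.03; adjusted p = 3.9e-05). NOP56, a core protein of box C/D ribonucleoproteins, had 46.1, 47.7 and 45 and then 35.1, 37.3 and 32.7 FPKM (-0.43 ± 0.05). UTP4 of the small subunit processome changed by -0.36 ± 0.04. Over the first step 17 of the 32 assembly genes were lower and 1 higher, with a median of -0.16. In the list of MYC, MondoA and their targets, 5 of 17 were higher (29.4%, against 14.3% of all tested genes). Lower were 3 (17.6%, against 15.1%), or 1 without replicate 2 of 20 mM. The higher members included antagonists of MYC: MXD1 had 3.13, 2.74 and 3.01 and then 5.05, 4.83 and 4.76 FPKM (0.69 ± 0.07; adjusted p = 0.00012), and MNT rose by 0.49 ± 0.08 and MXD4 by 0.34 ± 0.08. MYC itself had 3.60, 2.75 and 2.42 FPKM and then 3.93, 3.29 and 3.33 (0.23 ± 0.13; adjusted p = 0.21), which did not pass, except without replicate 1 of 20 mM (0.41; 0.024). TXNIP, a MondoA target, had 0.948, 1.07 and 1.26 and then 1.44, 1.73 and 1.38 FPKM (0.44 ± 0.15; adjusted p = 0.055), and passed without replicate 3 of 20 mM or replicate 3 of 40 mM (0.043 in each).

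Nuclear genes of mitochondria gave few calls. Of 37 complex I genes 7 were lower (18.9%) and 0 higher, of 43 genes of complexes III to V 5 were lower (11.6%) and 0 higher, and of 78 mitochondrial ribosomal protein genes 14 were lower (17.9%) and 3 higher (1 without replicate 2 or 3 of 20 mM, 6 without replicate 3 of 40 mM). These lower shares were near the 15.1% of all tested genes, while the higher shares of 0%, 0% and 3.85% were below the 14.3% of all. The median log2 changes of the 3 lists were -0.11, -0.12 and -0.09, against -0.0004 for all tested genes. NDUFV1, which binds NADH in complex I, had 21.9, 22.2 and 22.9 FPKM at 20 mM and 18, 19.6 and 17.7 at 40 mM (-0.31 ± 0.05), and MRPL12 had 79.9, 81.7 and 79.7 and then 59.6, 60.9 and 58.7 (-0.46 ± 0.04). ATP5PD of the ATP synthase stalk changed by -0.35 ± 0.06. The count for complexes III to V was 1 without replicate 2 or 3 of 20 mM, 3 without replicate 1, 9 without replicate 2 and 10 without replicate 3 of 40 mM. Of 27 genes of the TCA cycle and pyruvate entry 7 were lower (25.9%) and 0 higher. Without replicate 3 of 40 mM 2 genes of this list and 2 of complex I were higher, and 1 of this list was without replicate 3 of 20 mM. Beside IDH2, MDH1 changed by -0.45 ± 0.07 and SUCLG2 by -0.39 ± 0.04.

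Of the 13 messenger RNAs of the mitochondrial genome, 1 was higher, MT-ND1, and 3 lower. Without replicate 3 of 40 mM 11 were lower, and 1 was lower without replicate 1 or 3 of 20 mM or replicate 1 or 2 of 40 mM. MT-CYB, the cytochrome b of complex III, had 1820.4, 1980.3 and 2020.3 FPKM at 20 mM and 982, 1116 and 1583 at 40 mM (-0.69 ± 0.16; adjusted p = 0.0083). Its highest 40 mM value was in replicate 3, the library with the largest mitochondrial share of counts. MT-ND1 had 1318, 1355 and 1395 and then 1629, 1707 and 2406 FPKM, and its log2 change of 0.47 ± 0.15 was 0.26 without that library (adjusted p = 0.073); its call was also lost without replicate 2 of 0 mM (0.051) or any 1 library of 20 mM (0.078 to 0.094).

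Most lysosome and autophagy genes rose. Of 35 tested, 22 were higher at 40 mM (62.9%) and 1, GUSB, lower, with a median log2 change of 0.23. Over the first step 25 of the 35 were already higher and 0 lower, against 16.3% and 15.2% of all tested genes. The call of GUSB was lost in 7 of the 9 fits without 1 library, all but those lacking replicate 2 or 3 of 40 mM. GPNMB, a lysosomal and melanosomal membrane protein, had 34.5, 32.5 and 32.6 FPKM untreated, 50.5, 49.5 and 46.9 at 20 mM and 78.5, 76 and 73.6 at 40 mM (0.60 ± 0.05; adjusted p = 3.7e-05). GABARAPL1, an ATG8 protein of autophagosomes, had 9.33, 9.04 and 10.2 and then 15.2, 15 and 15.4 FPKM (0.64 ± 0.06; adjusted p = 8.9e-05). CTSK, the protease cathepsin K, had 4.61, 6.22 and 6.32 and then 8.03, 9.90 and 11.6 FPKM (0.75 ± 0.15; adjusted p = 0.0041). The doses did not overlap in any of these genes, and their levels rose over each step. FNIP1 rose by 0.41 ± 0.06 and the Rag GTPases RRAGD and RRAGC by 0.41 ± 0.07 and 0.40 ± 0.08. The difference between the steps was called in 2 of the 35, as more negative, and 0 members met the second-step rule. The CLEAR element TCACGTGA, the textbook site of the lysosomal regulator TFEB, occurred in 4 of the list's 24 promoters found (16.7%) against 2.13% of tested promoters. In the same 24 the antioxidant response element TGACNNNGC occurred in 10 (41.7% against 15.4%) and the AP-1 element TGANTCA in 3 (12.5% against 4.31%).

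Iron and redox lists held calls in both directions, with lower shares of 12.5% to 21.1% against 15.1% of all tested genes. In ferroptosis defence 6 of 22 were higher (27.3%) and 4 lower (18.2%), and in ferroptosis promotion 4 of 19 (21.1%) and 4 (21.1%). Among NRF2 targets 7 of 30 were higher (23.3%) and 5 lower (16.7%), and in iron handling 7 of 24 (29.2%) and 3 (12.5%), where 14.3% of all tested genes were higher. The lists share members: HMOX1, FTL and FTH1 each count as higher in 3 of the 4. Without replicate 2 of 20 mM the higher counts were 3, 2, 3 and 2. Without replicate 3 of 20 mM they were 3, 4 and 2 in defence, NRF2 targets and iron handling, and without replicate 1 of 40 mM they were 4 for NRF2 targets and 3 for iron handling. The lower counts also moved: to 2 in defence without replicate 3 of 20 mM or replicate 2 of 40 mM, to 2 in promotion without those or replicate 2 of 20 mM, to 3 for NRF2 targets without replicate 2 or 3 of 20 mM, and to 1 for iron handling without replicate 1 or 3 of 20 mM or replicate 2 of 40 mM. FTL, the ferritin light chain, had 2230.0, 2035 and 2004 FPKM at 20 mM and 2902, 2636 and 2933 at 40 mM (0.40 ± 0.06; adjusted p = 0.0011). HMOX1, which degrades heme, had 43.3, 31.1 and 26.2 and then 116, 58.4 and 43 FPKM (1.08 ± 0.32; adjusted p = 0.028). Replicate 1 of 40 mM was the highest HMOX1 library, and without it the change was 0.56 (adjusted p = 0.093); the call was also lost without replicate 2 (0.091) or 3 (0.1) of 20 mM. FTL has many pseudogenes, so its reads may be shared.

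On the lower side, ACSL4, which places polyunsaturated fatty acids into phospholipids, had 7.21, 7.71 and 8.01 FPKM at 20 mM and 4.76, 5.18 and 5.47 at 40 mM (-0.60 ± 0.07; adjusted p = 0.00023). DHODH, a mitochondrial enzyme of pyrimidine synthesis, changed by -0.55 ± 0.09, the NRF2 target PIR by -0.54 ± 0.06 and the glutathione synthetase GSS by -0.44 ± 0.06; GSS was a second-step gene in 7 of the 9 fits. GPX4, the peroxidase that detoxifies lipid peroxides, had 31, 29.7 and 29 and then 29.2, 28.7 and 31.6 FPKM, a difference of -0.03 ± 0.05 with a 95% interval of -0.15 to 0.08 (adjusted p = 0.64). TFRC, the transferrin receptor, had 60.6, 60.0 and 58.4 and then 65.1, 63.3 and 53.1 FPKM (-0.01 ± 0.07; adjusted p = 0.91), and the sign of its difference was positive with limma and without replicate 3 of 40 mM.

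Inflammatory and interferon genes rose in part. Of 15 genes of NF-kB and inflammation 8 were higher (53.3%) and 0 lower, with counts of 4, 5 and 4 without replicate 2 or 3 of 20 mM and replicate 1 of 40 mM. ICAM1, an adhesion molecule for leukocytes, had 14.5, 15.7 and 15.6 FPKM at 20 mM and 23.6, 24.1 and 26 at 40 mM (0.65 ± 0.06; adjusted p = 6e-05), and NFKBIA, the inhibitor of NF-kB, had 5.35, 4.32 and 4.58 and then 7.57, 6.10 and 6.58 (0.47 ± 0.11). Of 24 interferon response genes 11 were higher (45.8%; 7 without replicate 2 of 20 mM) and 0 lower, with a median of 0.20. IFIT2, an interferon-induced RNA-binding protein, had 1.26, 1.30 and 1.61 and then 2.22, 2.37 and 2.46 FPKM (0.72 ± 0.14). In these genes each 40 mM library lay above each 20 mM library. ISG15 (0.67 ± 0.23) lost its call in 8 of the 9 fits without 1 library, all but that lacking replicate 3 of 40 mM (adjusted p = 0.053 to 0.15). BST2 (0.60 ± 0.20) lost it in 6 (0.065 to 0.14), those lacking replicate 2 of 0 mM, any library of 20 mM, or replicate 1 or 3 of 40 mM. In HLA class I presentation 3 of 17 were higher (17.6%) and 1 lower (0 without replicate 3 of 20 mM or replicate 2 of 40 mM, 2 without replicate 1 of 20 mM), near the background, with the peptide-loading factor TAPBP at 0.48 ± 0.10.

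Some markers of other cell types moved as well, mostly at low levels. Of 8 leukocyte markers 2 were tested, and the list's summed level was 14.8 to 17.6 FPKM at 20 mM and 20.5 to 26.7 at 40 mM. Most of it was CD68, a lysosomal protein, with 12.9, 10.8 and 11.8 FPKM at 20 mM and 15.2, 15 and 22.1 at 40 mM, while 4 of the 8, PTPRC, CD3E and MS4A1 among them, had a mean under 0.1 FPKM. The call of CD68 was lost without replicate 2 (adjusted p = 0.079) or 3 (0.059) of 20 mM, and its log2 change of 0.53 was 0.31 without replicate 3 of 40 mM. Summed keratinocyte markers (4 of 7 tested) went from 29.2 to 30.4 FPKM at 20 mM to 34.6 to 35.9 at 40 mM. Most of that sum was KRT10, which was not called, with 20.2, 20.4 and 19.7 and then 24.3, 21.9 and 21.8 FPKM. KRT14 rose by 0.36 ± 0.08. The other call, DSP, was lost in 5 of the 9 fits, those lacking any library of 20 mM or replicate 2 or 3 of 40 mM. Fibroblast markers (1 of 8 tested, LUM, 0.52 ± 0.12) went from 4.04 to 5.25 FPKM to 6.18 to 7.25. Endothelial markers (1 of 7 tested, KDR, -0.53 ± 0.13) were at 1.61 to 2.16 and then 1.75 to 2.12 FPKM. Of the untested members, CDH5 and VWF went the other way from KDR. CDH5 had 0.132, 0.0947 and 0.0927 FPKM at 20 mM and 0.412, 0.314 and 0.462 at 40 mM. The part of other cell types in the results above was not tested.

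Melanoma state and matrix lists held calls in both directions, with lower shares near the 15.1% of all tested genes; 14.3% of all were higher. In the melanocyte lineage list 1 of 10 was higher, GPNMB (2 without replicate 3 of 20 or of 40 mM), and 1 lower (2 without replicate 3 of 40 mM), the neural crest factor TFAP2B, with 6.26, 7.76 and 9.87 FPKM untreated, 2.13, 2.33 and 2.58 at 20 mM and 0.903, 1.18 and 1.71 at 40 mM (-0.92 ± 0.21; adjusted p = 0.0089). MITF, the melanocyte master regulator, had 2.77, 2.84 and 2.43 and then 3.06, 2.85 and 3.40 FPKM, a difference of 0.18 ± 0.10 with a 95% interval of -0.05 to 0.41 (adjusted p = 0.22). Among genes of dedifferentiated and invasive melanoma 7 of 22 were higher (31.8%) and 4 lower (18.2%; 2 without replicate 1 of 20 mM or replicate 2 of 40 mM). Of 32 integrins, collagens and matrix genes 7 were higher (21.9%) and 5 lower (15.6%; 3 without replicate 1 of 20 mM or replicate 2 of 40 mM, 9 without replicate 3 of 40 mM); beside MMP3 and ITGB3, the laminin chain LAMA4 changed by -0.47 ± 0.10.

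Other stress lists gave counts nearer to those of all tested genes. In the unfolded protein response 3 of 24 were higher and 4 lower, near the background, and HSP90B1, the endoplasmic reticulum HSP90, had 146, 144 and 142 FPKM at 20 mM and 114, 118 and 109 at 40 mM (-0.37 ± 0.04). In the heat shock list 3 of 19 were higher (6 without replicate 1 of 20 mM, 1 without replicate 2 or 3 of 20 mM or replicate 1 or 2 of 40 mM) and 2 lower; its second step was more positive than its first in 8 of 19, but in 1 without replicate 2 or 3 of 20 mM and in 5 without replicate 1 or 2 of 0 mM. HSP90AB1, a cytosolic HSP90, changed by -0.29 ± 0.03 after -0.58 ± 0.03 over the first step, and DNAJB4, a co-chaperone, by 0.43 ± 0.08. Of 25 p53 targets 7 were higher (28%) and 2 lower, with 4 higher when replicate 3 of 20 mM was left out and 3 when replicate 2 of 20 mM or replicate 1 of 40 mM was. ZMAT3, an RNA-binding p53 target, had 2.15, 2.24 and 1.79, then 1.99, 2.16 and 2.22 and then 3.31, 3.12 and 3.39 FPKM (0.59 ± 0.08; adjusted p = 0.00068) and was a second-step gene in 2 of the 9 fits. CDKN1A, the cell cycle inhibitor p21, had 28.2, 26.1 and 23.8 and then 35.8, 31.1 and 30.5 FPKM (0.29 ± 0.08). Its call was lost without replicate 2 (adjusted p = 0.055) or 3 (0.074) of 20 mM or replicate 1 of 40 mM (0.061).

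Among 11 BCL2 family genes 3 were higher (27.3%, against 14.3% of all tested genes) and 0 lower (against 15.1%). Without replicate 2 of 20 mM or replicate 1 of 40 mM 1 was higher. BCL2L1, which encodes the survival protein BCL-XL, had 28.8, 26.5 and 26.7 FPKM at 20 mM and 32.8, 33 and 35.2 at 40 mM (0.27 ± 0.05). The death-promoting members BBC3 (0.52 ± 0.13) and BCL2L11 (0.50 ± 0.15) rose with it, but the call of BBC3 needed replicate 2 of 20 mM (adjusted p = 0.055 without it) and replicate 1 of 40 mM (0.053 without it). BCL2L11 lost it without replicate 2 (0.11) or 3 (0.079) of 20 mM or replicate 1 (0.11) or 2 (0.064) of 40 mM. In the list of AMPK and mTORC1 brakes 8 of 19 were lower (42.1%; 5 without replicate 3 of 20 mM) and 1 higher (2 without replicate 2 of 40 mM). CAMKK2, a kinase that activates AMPK, had 3.78, 3.71 and 3.98 and then 2.96, 2.86 and 3.09 FPKM (-0.40 ± 0.06). The AMPK subunit genes PRKAA1 (-0.29 ± 0.05) and PRKAG1 (-0.36 ± 0.05) were second-step genes, in 5 and 2 of the 9 fits.

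**Figure D5:**
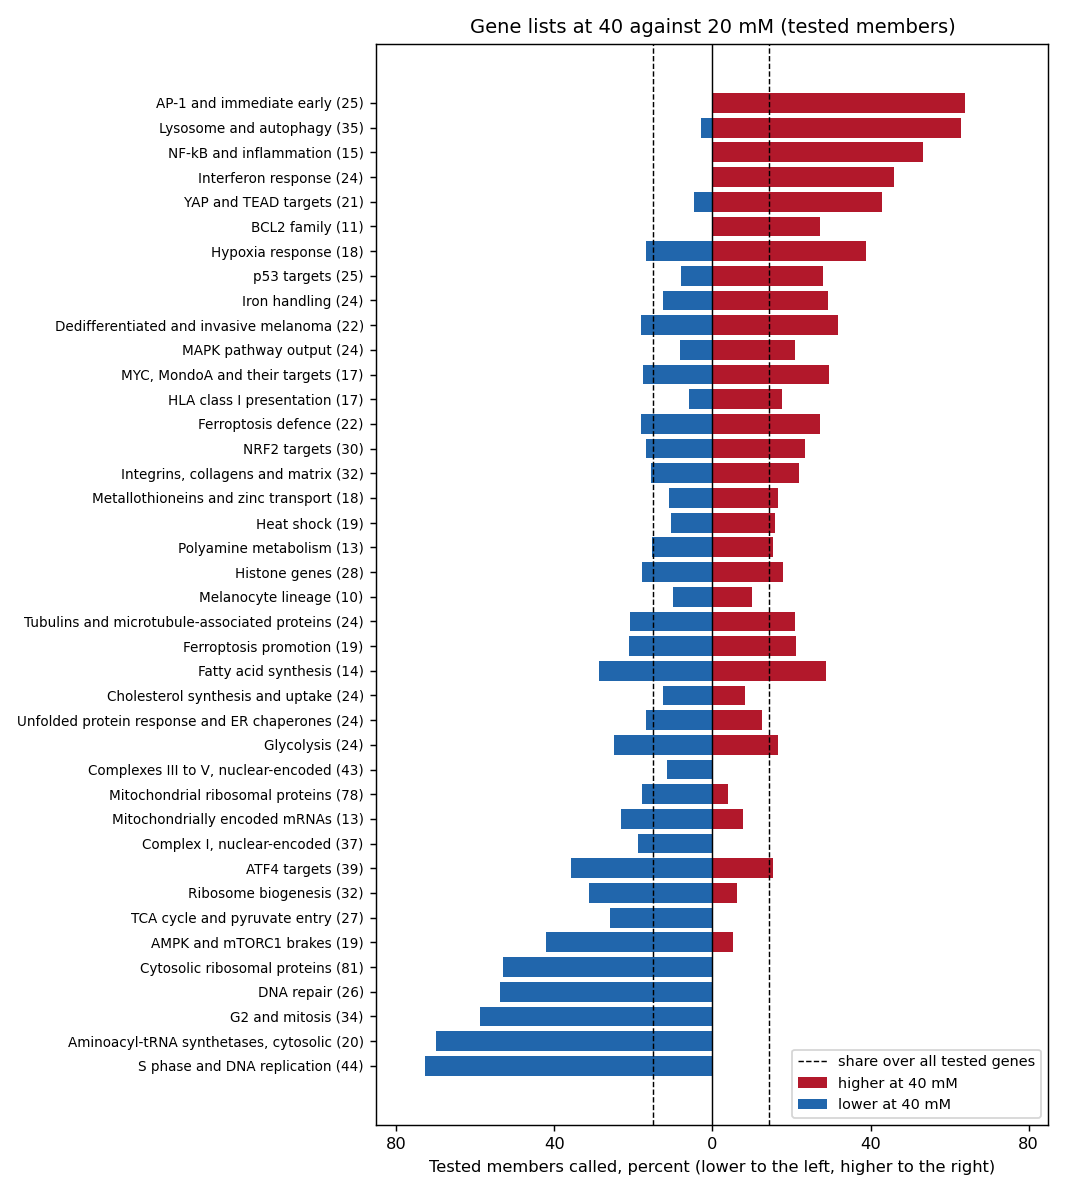
Percent of tested members called lower (blue, to the left) and higher (red, to the right) at 40 against 20 mM for each gene list with at least 10 tested members, with the number of tested members in brackets; dashed lines mark the 15.1% and 14.3% of all tested genes. Among these lists AP-1 and lysosome genes reach furthest to the right, at 64% and 62.9%, and S phase genes and aminoacyl-tRNA synthetases furthest to the left, at 72.7% and 70%.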

How the data were processed

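Polyadenylated RNA of 9 libraries was sequenced with strand-specific libraries, per the labels' protocols. The deposited table gives read counts per gene and FPKM, both made by the authors, with gene positions, per the file headers. The submitters' processing notes name StringTie 2.1.6; the aligner, the genome build of the positions and the use of strand in counting are not stated in these sources.

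Genes with a mean of at least 1 FPKM, 12394 of 37118, were tested. Counts were scaled by TMM and fitted with edgeR 4.0.16 (R 4.3.3), quasi-likelihood, all 9 libraries in one model, for each dose step, for 40 against 0 mM and for the difference between the steps, with Benjamini-Hochberg adjustment over all tested genes and a threshold of 0.05. The script was tested on simulated data. Alternatives were other filters, median-of-ratios scaling, DESeq2 1.42.0, limma 3.58.1 on log2(FPKM + 1) and log2(FPKM + 0.1), an adjusted p under 0.01, a replicate block, 6 libraries and leaving out each library. With 3 libraries a dose the depth was 65738242 to 75629413 counts, so the spread between libraries limits the precision for all but low genes.

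Named genes were the 12 largest rises and falls without overlap at 5 FPKM or more, the 10 largest second-step rises and falls, up to 3 called members of each of 44 lists (2 where none was called) and 15 fixed genes. Other list members and second-step genes that are named were chosen after their values were seen. The members and lists were chosen with earlier results of these data known. Some genes the rule names are not reported here.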

Additional observations from a re-analysis of the deposited data

How the results depend on the processing

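With 9 libraries 3637 genes were called (1770 higher, 1867 lower), 847 had unequal steps and 185 met the second-step rule (83 higher, 102 lower). Leaving out each library in turn gave 2408 to 4065 called (1142 to 1966 higher, 1266 to 2099 lower), 179 to 1664 with unequal steps and 6 to 159 higher with 11 to 216 lower second-step genes. Without a filter 529 genes had unequal steps and 96 met the rule (28 higher). At a mean of at least 5 FPKM, where fewer genes were tested, 2367 were called (1174 higher, 1193 lower). DESeq2 gave 1428 unequal steps and 332 second-step genes (144 higher, 188 lower). Limma gave 92 higher and 66 lower second-step genes with a pseudocount of 1 and 89 and 67 with 0.1, more higher than lower, where edgeR gave 83 and 102. The cause of these shifts was not tested. At an adjusted p under 0.01, 1858 were called (868 higher, 990 lower), 208 had unequal steps and 30 met the rule (11 higher, 19 lower). Requiring a first step within 1.2-fold gave 134 second-step genes. The difference of TFRC, not called, turned positive with limma (0.0131 and 0.0132) and ran from -0.068 (without replicate 1 of 40 mM) to 0.0709 (without replicate 3 of 40 mM) with 1 library left out. Deviations of same-numbered libraries correlated at -0.101 to 0.186, and not every library matched its own number best. With 3 libraries a dose this check cannot decide whether the replicate numbers pair the libraries. With the replicate block 3982 genes were called and 249 met the rule, 165 of them among the 185. Genes with few reads and small changes are limited by 3 libraries a dose.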

Other observations

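Lists of lipid metabolism, sugar metabolism and hypoxia held calls in both directions, where 14.3% of all tested genes were higher and 15.1% lower. The higher and lower shares were 8.33% and 12.5% for cholesterol, 28.6% and 28.6% for fatty acid synthesis and 16.7% and 25% for glycolysis. For the hypoxia response they were 38.9% and 16.7%. Of 24 genes of cholesterol synthesis and uptake 2 were higher (6 without replicate 3 of 40 mM; 1 when replicate 3 of 20 mM or replicate 1 of 40 mM was left out) and 3 lower, and the second step was more positive than the first in 5. The second step was called as more positive in 2.73% of all tested genes. PMVK of the mevalonate pathway changed by -0.47 ± 0.10 and FDPS, which makes farnesyl diphosphate, by -0.32 ± 0.05. In fatty acid synthesis 4 of 14 were higher (2 without replicate 3 of 20 mM or replicate 1 of 40 mM) and 4 lower (1 without replicate 1 or 3 of 20 mM or replicate 1 of 40 mM, 2 without replicate 2 of 20 mM), with the phosphatidate phosphatase LPIN1 at 4.83, 4.65 and 4.72 FPKM at 20 mM and 6.97, 6.51 and 5.75 at 40 mM (0.41 ± 0.07). In glycolysis 4 of 24 were higher (0 when replicate 3 of 20 mM or replicate 1 of 40 mM was left out, 1 for replicate 2 of 20 mM, and 2 for replicate 2 of 0 mM, replicate 1 of 20 mM or replicate 2 of 40 mM) and 6 lower, with ENO2 at -0.31 ± 0.07 and LDHB at -0.30 ± 0.07. Hypoxia response genes gave 7 of 18 higher (38.9%; 4 without replicate 2 or 3 of 20 mM or replicate 1 of 40 mM) and 3 lower. NDRG1, a stress-induced hypoxia target, had 7.35, 6.96 and 6.40 FPKM untreated, 10.9, 9.64 and 9.88 at 20 mM and 18.8, 16.5 and 16.3 at 40 mM (0.73 ± 0.07; adjusted p = 0.00013), and KDM3A, a histone demethylase, was a second-step gene (0.42 ± 0.06) that held the rule in 2 of the 9 fits, those lacking replicate 2 of 0 mM or replicate 3 of 40 mM.

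Smaller lists held single changes, where 14.3% of all tested genes were higher and 15.1% lower. The higher and lower shares were each 17.9% for histone genes, 20.8% for tubulins and 15.4% for polyamine genes. For metallothioneins and zinc transport they were 16.7% and 11.1%. Of 28 histone genes 5 were higher and 5 lower (3 without any 1 library of 0 mM or replicate 1 of 20 mM, 2 without replicate 2 or 3 of 20 mM). H2AC19 had 3.28, 4.19 and 3.96 FPKM untreated, 2.52, 2.57 and 3.04 at 20 mM and 6.25, 5.30 and 4.08 at 40 mM (0.91 ± 0.19; adjusted p = 0.0051), but its near-identical copy H2AC18 had almost the same values and the reads cannot be told apart. Of 24 genes of tubulins and microtubule-associated proteins 5 were higher and 5 lower. MAP1B, a neuronal microtubule protein, had 3.22, 3.16 and 3.53, then 11.6, 11.8 and 12.3 and then 18.4, 15.9 and 18.1 FPKM (0.52 ± 0.06; adjusted p = 0.00028), and TUBGCP5 of the microtubule-nucleating ring was a second-step gene (-0.51 ± 0.07) that held the rule in 1 of the 9 fits, that lacking replicate 3 of 40 mM. Of 13 polyamine genes 2 were higher (5 without replicate 3 of 40 mM, 1 without any other library of 20 or 40 mM) and 2 lower (1 without replicate 2 of 20 mM). ARG2, the mitochondrial arginase, had 7.97, 9.11 and 7.87 FPKM at 20 mM and 13.8, 15.4 and 14 at 40 mM (0.76 ± 0.08; adjusted p = 0.0002). Of 18 metallothionein and zinc transport genes 3 were higher and 2 lower (4 without replicate 1 or 3 of 40 mM), the zinc transporters SLC30A6 (-0.45 ± 0.06) and SLC30A9 (-0.41 ± 0.05).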
